A study of Mus musculus with 12 samples.

Results

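The genes of potassium channels were examined in the hippocampus of MSN and ICR mice. They were the single-gene transcript clusters of the array whose symbol starts with Kcn, Kcnj13 excepted, with the cluster of the highest mean kept for each gene. This gave 91 of the 19938 genes that have such a cluster. A transcript cluster is a set of probes along 1 transcript, and its intensity is on a linear scale. MSN (Madison) mice are an inbred line derived from the outbred hsd:ICR stock, and they show a manic phenotype with high locomotor activity. ICR mice, the outbred ancestors, served as the normal control. All mice were adult males, 6 of each strain, and macrodissected hippocampus of each mouse was hybridized to its own Affymetrix Mouse Gene 1.0 ST array. MSN is a single line, so the manic phenotype and its other inherited differences cannot be told apart here. The paper describes the platform as designed to limit effects of sequence differences in probes. It cautions that such differences at probe binding sites could still affect some genes. Their part in the intensities given here was not tested.

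Potassium channels let potassium ions leave or enter cells along their gradient, and in neurons they set the resting potential, end the action potential and shape firing. Voltage-gated (Kv) channels open on depolarization, inward rectifiers (Kir) pass current best near the resting potential, and two-pore domain (K2P) channels carry background leak. Other channels open with intracellular calcium or sodium, and accessory subunits change the gating or trafficking of the pore-forming proteins. In the hippocampus these currents control dendritic integration and burst firing, while astrocytes use Kir channels to clear potassium from the extracellular space. The 91 genes comprised 35 Kv, 14 Kir, 14 K2P, 8 calcium- and sodium-activated and 17 accessory genes, and 3 noncoding transcripts that bear Kcn symbols. All 91 were matched to the gene table. They lie on 19 chromosomes.

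Macrodissected hippocampus was checked by markers. The lowest marker value in any mouse was 95, for Cldn2 of the choroid plexus. Markers of striatum and thalamus also gave signal, with lowest single values of 279 and 375, and the part of such tissue was not tested. All 9 markers of CA1, CA3 and dentate granule cells were measured, with the lowest single value at 312. They were not level between the strains. All 3 CA1 markers, 2 of 3 CA3 markers and 2 of 3 dentate markers were higher in MSN mice. The CA3 marker Bok was 995 to 1221 in MSN and 724 to 949 in ICR mice (log2 fold change 0.36; limma, adjusted P-value 0.031). Pairs of arrays correlated at 0.992 to 0.997 if they shared a strain and at 0.992 to 0.996 if they did not. The median intensity of an array was 270 to 298, with 1.79% to 2.33% of all clusters below 16. ICR replicate 3 stood apart from the other ICR mice. Its Pvalb intensity, a marker of fast-spiking interneurons, was 2286 against 841 to 1102 in the other 11 mice. The other interneuron markers measured, Gad1, Gad2, Sst and Vip, lay within the range of the other mice, at 2663, 1950, 4605 and 466. Its summed CA1, CA3 and dentate markers were the lowest of all, at 4371, 5525 and 2298, and its summed thalamus markers the highest, at 4221. Fold changes of the genes in which this mouse had the highest value are given with and without it. So are those of Kcng3, Kcnn3 and Kcnab2, in which it had the lowest value. In tissue RNA, fewer cells of a type and less RNA per cell cannot be told apart.

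No potassium channel gene was dysregulated between the strains at an adjusted P-value under 0.05, the threshold used throughout (limma, Benjamini-Hochberg over 23410 clusters). Over all genes 0.782% passed it, and over all clusters tested 0.777%. Without adjustment 15 of the 91 genes (16.5%) had a limma P-value under 0.05, against 12.6% of all genes. Of these, 12 were lower in MSN mice, where 7.52% of all genes were, and 3 were higher, where 5.05% were. The count of 15 fell to 9 without ICR replicate 6 and was 19 without ICR replicate 3. The split between the directions depended on the scaling, with 8 higher and 9 lower after quantile normalization, and 7 higher and 6 lower when arrays were scaled to the same median. The 15 genes themselves kept their direction under both scalings, which moved the median of all genes by at most 0.025 (log2). Genes picked by P-value in the same arrays can hardly change direction under such a shift.

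Differences were small. The median log2 fold change of MSN over ICR was -0.013 for the 91 genes and -0.008 for all genes. In 68 of the 91 the estimate was within 0.1 of 0, and in 90 the 95% confidence interval lay within 0.5 of 0 on both sides. Kcnj16 was the exception. Over all genes the share within 0.1 was larger, 16165 of 19938, and 19652 had such an interval. The median absolute log2 fold change was 0.051 for the 91 genes and 0.047 for all genes. For the 91 genes the median distance from an estimate to the end of its interval was 0.12. Strain differences much smaller than this could not be resolved with 6 mice per strain. These intervals are not adjusted for the number of clusters. Larger estimates also missed the adjusted threshold, such as -0.26 for Kcnk10 and 0.17 for Kcnj10, so differences of that size are not excluded by the lack of calls.

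By channel type, the median log2 fold change was -0.010 for Kv, 0.004 for Kir, -0.025 for K2P, -0.028 for calcium- and sodium-activated, and -0.016 for accessory genes. The share with a limma P-value under 0.05 was 4 of 35 Kv, 1 of 14 Kir, 4 of 14 K2P, 2 of 8 calcium- and sodium-activated and 4 of 17 accessory genes. Over all genes it was 12.6%, and for Kv genes 11.4%. All 10 Kv, K2P and calcium- and sodium-activated genes among these were lower in MSN mice. The 1 Kir gene was higher, and of the accessory genes 2 were higher and 2 lower. Of all genes, 7.52% were lower and 5.05% higher at this P-value. The differences between the channel types were not tested. These medians depended on the processing. Among clusters above the median mean of all clusters, the K2P median was -0.12 and that of calcium- and sodium-activated genes -0.081. With arrays scaled to the same median they were 0.00038 and -0.0034, and those of Kv and accessory genes were 0.015 and 0.0095.

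**Figure D1:**
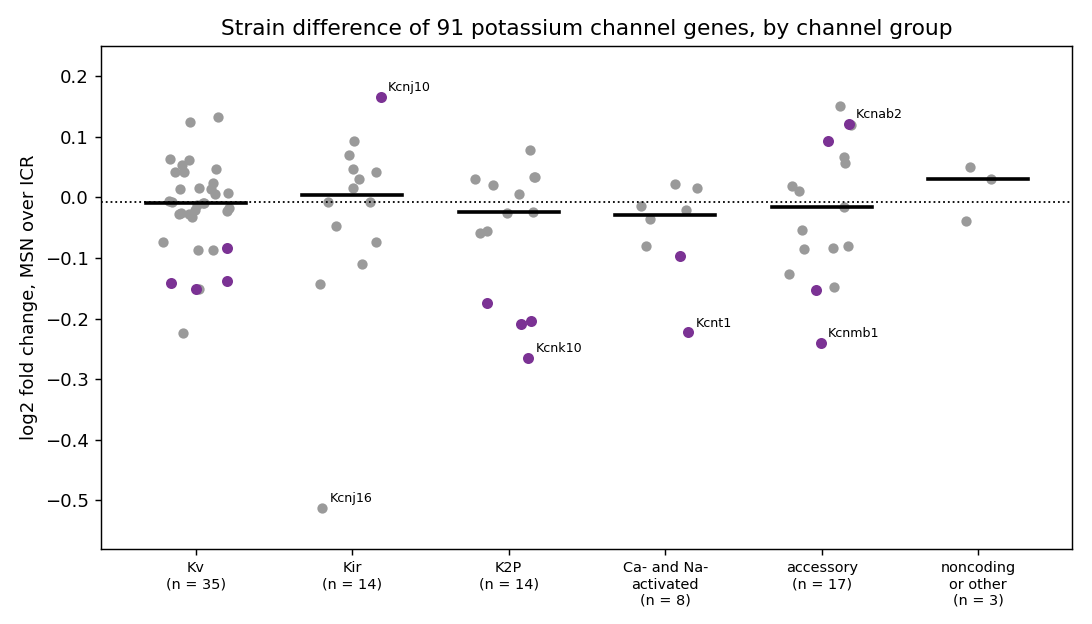
Log2 fold change of MSN over ICR (vertical axis) for each of 91 potassium channel genes, grouped by channel type. Each point is 1 gene, purple points have an unadjusted limma P-value under 0.05, black bars are group medians and the dotted line is the median of all genes. Points cluster around 0, and Kcnj16 lies lowest at -0.51. The purple Kv, K2P and calcium- and sodium-activated points all lie below 0. The purple Kir point lies above it, and purple accessory points lie on both sides.

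Among inward rectifiers, Kcnj10 was higher in MSN mice and was the only one of the 91 genes with no overlap between the strains, as in 1.48% of all genes. Kcnj10 encodes the main Kir channel of astrocytes, which buffers potassium released by neurons. Its intensity was 3166 at the lowest, 3416 at the median and 3617 at the highest in MSN mice. In ICR mice these were 2946, 3020 and 3160. The lowest MSN mouse, replicate 2, thus lay just above the highest ICR mouse, replicate 4. The log2 fold change was 0.17 with a standard error of 0.042 (limma P-value 0.0013, adjusted 0.085). The exact two-sided permutation P-value was 0.0022, the smallest that 6 against 6 mice can give. Any gene without overlap has this value, so it adds nothing to the lack of overlap. The adjusted limma P-value of Kcnj10 passed the threshold with trend and robust options (0.035) and among clusters above the median mean (0.041). It lay between 0.064 and 0.16 when single arrays were left out.

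Markers of astrocytes differed in both directions. Of the 5 measured, 2 were higher and 3 lower in MSN mice, none passed the adjusted threshold in limma, and 3 had an unadjusted P-value under 0.05. Gfap, the intermediate filament of astrocytes, differed by -0.30 and Aqp4, the water channel of their endfeet, by -0.23, while Aldh1l1, a folate enzyme, differed by 0.19 (log2). The summed astrocyte markers were 10708 to 11650 in MSN and 11518 to 12936 in ICR mice. The 4 oligodendrocyte markers measured were all higher in MSN mice and none passed, with summed values of 14470 to 16592 against 13970 to 15736. Pdgfra, a marker of oligodendrocyte precursors, was higher in MSN mice and passed the threshold (log2 fold change 0.26). The part of cell makeup in the Kcnj10 difference was not tested.

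Kcnj16 varied most. Its product forms heteromeric channels with that of Kcnj10 in glia and kidney. The intensity was 229, 261, 953, 708, 289 and 272 in MSN replicates 1 to 6, and 260, 547, 657, 628, 713 and 702 in ICR replicates 1 to 6. Thus 4 MSN mice and 1 ICR mouse had values between 229 and 289, while the other 2 MSN and 5 ICR mice were between 547 and 953, with none in between. The strains overlapped fully, and the log2 fold change of -0.51 did not pass (limma P-value 0.16, adjusted 0.58). Leaving out single arrays moved it between -0.77 (without MSN replicate 3, adjusted P-value 0.33) and -0.37 (without MSN replicate 1, adjusted P-value 0.73), and with array weights it was -0.28 (adjusted P-value 0.75). Kcnj16 was singled out after its values were seen.

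The promoters of these partners are given because Kcnj10 alone separated the strains and Kcnj16 had 2 levels within both. They are RefSeq sequences of GRCm38.p6, 5′ to 3′, covering 250 bases before and 50 after the transcription start, and both genes are on the + strand. Capitals mark GGGCGG (a GC box) and CCAAT motifs on either strand; the motif TATAAA of the TATA box was found in neither, nor was the motif CACGTG of the E box or the motif TGACGTCA of the cAMP response element. Kcnj10 has 1 start in the table, at chr1:172340960-172341259. Kcnj16 has 4, of which the one lying first on its strand is shown, at chr11:110967783-110968082. Which of these starts is used in hippocampus was not tested.
Kcnj10: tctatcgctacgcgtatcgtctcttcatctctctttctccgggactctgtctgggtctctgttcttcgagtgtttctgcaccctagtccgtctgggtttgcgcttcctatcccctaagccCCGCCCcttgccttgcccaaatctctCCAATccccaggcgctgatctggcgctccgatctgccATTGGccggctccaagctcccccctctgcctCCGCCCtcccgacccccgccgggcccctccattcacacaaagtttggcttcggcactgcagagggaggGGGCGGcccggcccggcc
Kcnj16: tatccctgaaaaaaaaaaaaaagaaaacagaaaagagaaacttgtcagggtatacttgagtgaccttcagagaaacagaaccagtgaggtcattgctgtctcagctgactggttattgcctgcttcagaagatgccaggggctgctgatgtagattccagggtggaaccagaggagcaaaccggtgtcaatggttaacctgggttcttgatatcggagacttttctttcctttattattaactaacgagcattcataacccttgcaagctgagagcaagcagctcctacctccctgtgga
The Kcnj10 window held 3 GC boxes and 2 CCAAT motifs, with 63.7% G and C and 21 CpG dinucleotides. The Kcnj16 window held no match, with 44.3% G and C and 3 CpG dinucleotides. The table had promoters for 69 of the 91 genes, 94 in all. A GC box was found in 47.9% of these and in 35.7% of all 32851 promoters of the same length, TATAAA in 4.26% and 13.6%, CCAAT in 30.9% and 37.4%, CACGTG in 7.45% and 7.15%, and TGACGTCA in 0% and 1.79%. These are matches of letters and not sites of binding.

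The remaining inward rectifiers had limma P-values above 0.05. Kcnj12, a strong inward rectifier, came nearest, with a log2 fold change of -0.14 (adjusted P-value 0.46), and the highest of its 12 values, 326, was that of ICR replicate 3. Without this mouse its log2 fold change was -0.086 (adjusted P-value 0.60), and without ICR replicate 2 it was -0.20 (adjusted P-value 0.17). Kcnj3 and Kcnj6, subunits of the G protein-gated channels that follow inhibitory receptors, differed by -0.008 and 0.031. The Kcnj3 intensity was 3478 to 3937 in MSN and 3581 to 3895 in ICR mice, so that the strains overlapped almost fully.

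Among K2P genes the 4 with the smallest P-values were all lower in MSN mice. They were Kcnk2 and Kcnk10, which encode the stretch- and lipid-sensitive channels TREK-1 and TREK-2, and Kcnk9 and Kcnk3, which encode the acid-sensitive channels TASK-3 and TASK-1. Kcnk2 intensity was 557, 571 and 709 (lowest, median and highest) in MSN mice. In ICR mice it was 656, 686 and 722. The highest MSN value, from replicate 1, lay within the ICR range, and the other 5 MSN mice lay below every ICR mouse. The log2 fold change was -0.20 with a standard error of 0.054 (limma P-value 0.0022, adjusted 0.11; exact permutation P-value 0.013). Without MSN replicate 1 it was -0.25 and passed (adjusted P-value 0.010), as it did with array weights (adjusted P-value 0.046). Over the alternatives its adjusted P-value was 0.010 to 0.23.

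Kcnk10 showed the lowest fold change of this type, -0.26 with a standard error of 0.085 (limma, adjusted P-value 0.19). Its intensity was 428, 472 and 491 in MSN and 468, 547 and 738 in ICR mice (lowest, median and highest). The strains overlapped at ICR replicate 2, which had the lowest ICR value, and ICR replicate 3 had the highest of all. Without ICR replicate 3 the log2 fold change was -0.19 (adjusted P-value 0.17).

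The TASK genes overlapped between the strains. Kcnk9 intensity was 949, 999 and 1174 in MSN and 1040, 1180 and 1359 in ICR mice, and the log2 fold change was -0.21 (standard error 0.067; limma, adjusted P-value 0.19). Kcnk3 intensity was 469, 521 and 564 in MSN and 518, 586 and 737 in ICR mice, and the log2 fold change was -0.17 (adjusted P-value 0.34). The highest Kcnk3 value was that of ICR replicate 3, and without this mouse the difference was -0.11 (adjusted P-value 0.41). The other 10 K2P genes were within 0.08 of 0. They included Kcnk4, which encodes the TREK-related channel TRAAK (0.021), and the TASK-related Kcnk15 (0.005). Kcnk1, which encodes the widely expressed channel TWIK-1, spread broadly in both strains, with 1756 to 2994 in MSN and 1665 to 2561 in ICR mice.

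**Figure D2:**
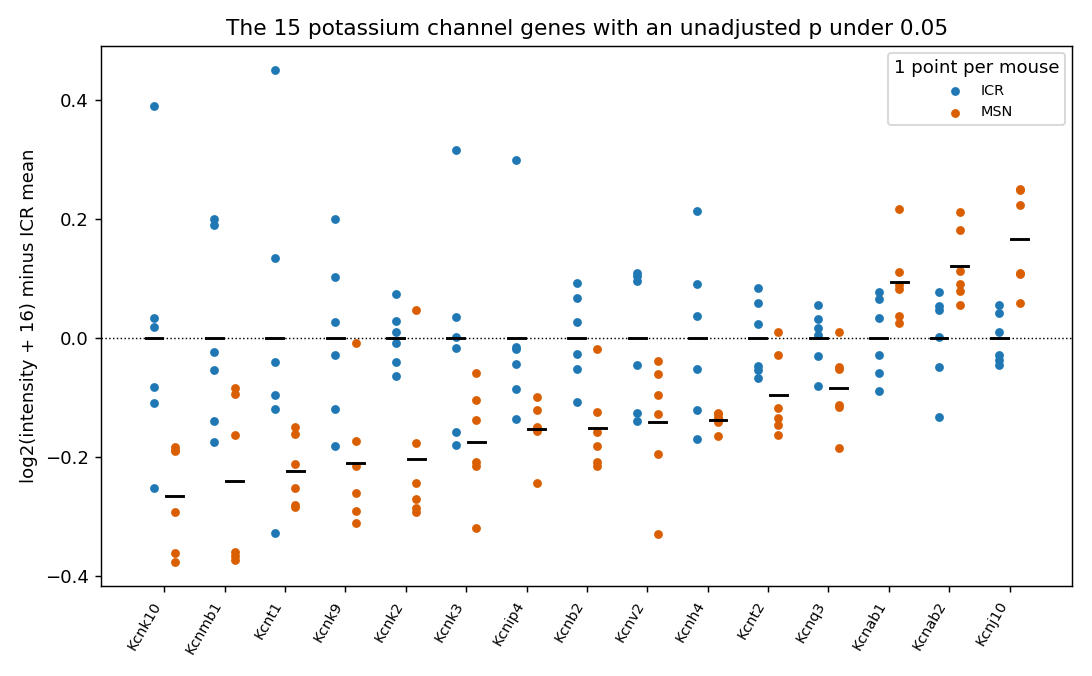
Values of the 15 potassium channel genes with an unadjusted limma P-value under 0.05, as log2(intensity + 16) minus the ICR mean of the gene (vertical axis). Each point is 1 mouse, blue for ICR and orange for MSN, and black bars are strain means. Of the 15 genes, 12 have the lower mean in MSN mice, and only Kcnj10 has no overlap between the strains.

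Of the Kv genes, 4 had a limma P-value under 0.05, and all 4 were lower in MSN mice. Kcnb2 encodes a delayed rectifier that limits repetitive firing. Its intensity was 684, 707 and 787 in MSN and 739, 798 and 851 in ICR mice (lowest, median and highest), with MSN replicate 3 inside the ICR range. The log2 fold change was -0.15 with a standard error of 0.044 (limma P-value 0.0044, adjusted 0.15; exact permutation P-value 0.011). Kcnq3, a subunit of the M-channel that restrains firing under muscarinic control, was 1703, 1830 and 1951 in MSN and 1832, 1952 and 2015 in ICR mice, and the log2 fold change was -0.084 (adjusted P-value 0.39). Kcnv2, a silent subunit that modifies other Kv channels, differed by -0.14 (adjusted P-value 0.35). Its strains overlapped, with 133 to 167 in MSN and 154 to 186 in ICR mice.

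Kcnh4, of the ether-a-go-go-like channels, had the most unequal spread. Its intensity was 231 to 238 in MSN mice, with a median of 236, and 230 to 305 in ICR mice, with a median of 260. The SD of its log2 values was 10.1 times larger in ICR than in MSN mice, the largest such ratio of the 91 genes, and the log2 fold change was -0.14 (limma, adjusted P-value 0.31). Kcna1, Kcna2, Kcna4, Kcnd2 and Kcnc1, other Kv genes of the axon and dendrite, had unadjusted limma P-values above 0.05. The Kcnc1 estimate was nonetheless about as large as that of Kcnq3. The log2 fold change was 0.008 for Kcna1 and -0.032 for Kcna2, of the axonal low-threshold channels, 0.014 for Kcna4, -0.028 for Kcnd2, of the dendritic A-type current, and -0.086 for Kcnc1, of the fast-spiking channels. The adjusted P-values of these 5 were 0.58 or more. ICR replicate 3 had the highest value of 4 of them, and without it the log2 fold change was 0.027 for Kcna1, 0.008 for Kcna2, 0.018 for Kcnd2 and -0.033 for Kcnc1.

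Both sodium-activated channel genes had lower means in MSN mice. Kcnt1 and Kcnt2 encode Slack and Slick, which carry outward current after bursts of firing. Kcnt1 intensity was 688, 714 and 757 in MSN and 667, 802 and 1154 in ICR mice (lowest, median and highest). ICR replicate 3 had the highest value and ICR replicate 2 the lowest of all 12. The log2 fold change was -0.22 with a standard error of 0.097 (limma, adjusted P-value 0.36; exact permutation P-value 0.052), and without ICR replicate 3 it was -0.13 (adjusted P-value 0.40). Kcnt2 was 1169, 1200 and 1319 in MSN and 1251, 1300 and 1391 in ICR mice, and the log2 fold change was -0.096 (adjusted P-value 0.35). Of the calcium-activated genes, Kcnma1, the large-conductance channel, differed by -0.036 and Kcnn2, a small-conductance channel of the afterhyperpolarization, by 0.015. Kcnma1 was 2967 to 3115 in MSN and 2955 to 3300 in ICR mice, and Kcnn2 was 1661 to 1807 and 1655 to 1775, so both overlapped almost fully.

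Accessory genes were divided. Kcnab2 and Kcnab1 encode cytoplasmic beta subunits of the axonal Kv channels and were both higher in MSN mice. Kcnab2 intensity was 4849, 5008 and 5405 in MSN and 4253, 4748 and 4923 in ICR mice, overlapping only at the ends, with a log2 fold change of 0.12 and a standard error of 0.043 (limma P-value 0.014, adjusted 0.25; exact permutation P-value 0.0043). Without ICR replicate 3, which had the lowest Kcnab2 value, the Kcnab2 difference was 0.095 (adjusted P-value 0.31). Kcnab1 differed by 0.094 (adjusted P-value 0.38). Kcnab3, the other member of this family, differed by -0.15 (unadjusted limma P-value 0.12), and by -0.067 without ICR replicate 3, which had its highest value.

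Kcnmb1 and Kcnip4 had lower means in MSN mice. Kcnmb1, the beta subunit of the large-conductance calcium-activated channel in smooth muscle, was 159, 174 and 198 in MSN and 185, 205 and 245 in ICR mice (lowest, median and highest). Its log2 fold change was -0.24 with a standard error of 0.078 (limma, adjusted P-value 0.20). The 5 markers of endothelium and pericytes were all higher in MSN mice, none past the threshold, with summed values of 4177 to 5396 against 3978 to 4771, and their part in this difference was not tested. Kcnip4, a calcium-binding subunit of the A-type channels, was 3117, 3325 and 3443 in MSN and 3358, 3612 and 4544 in ICR mice, and the log2 fold change was -0.15 (adjusted P-value 0.31). The highest Kcnip4 value was that of ICR replicate 3, without which the difference was -0.094 (adjusted P-value 0.29). Kcnip3, of the same family, differed by -0.084 (adjusted P-value 0.68).

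Kcne2, a single-span subunit abundant in the choroid plexus, varied with the markers of that tissue. Its highest values were 517 in ICR replicate 2, 495 in MSN replicate 6 and 465 in MSN replicate 4. The summed choroid plexus markers in these mice were 21577, 18320 and 21046, the highest of the 12, where the others had 7711 to 16329. All 10 choroid plexus markers measured were higher in MSN mice and none passed the threshold. The Kcne2 difference of 0.15 did not pass (limma P-value 0.31, adjusted 0.71). Single mice moved it, to 0.27 without ICR replicate 2, 0.23 without MSN replicate 3, 0.096 without MSN replicate 4 and 0.079 without MSN replicate 6, with adjusted P-values of 0.32 to 0.86. The part of choroid plexus tissue in these values was not tested. The 3 noncoding transcripts Kcnd3os, Kcnmb4os1 and Kcnmb4os2 were within 0.051 of 0.

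**Figure D3:**
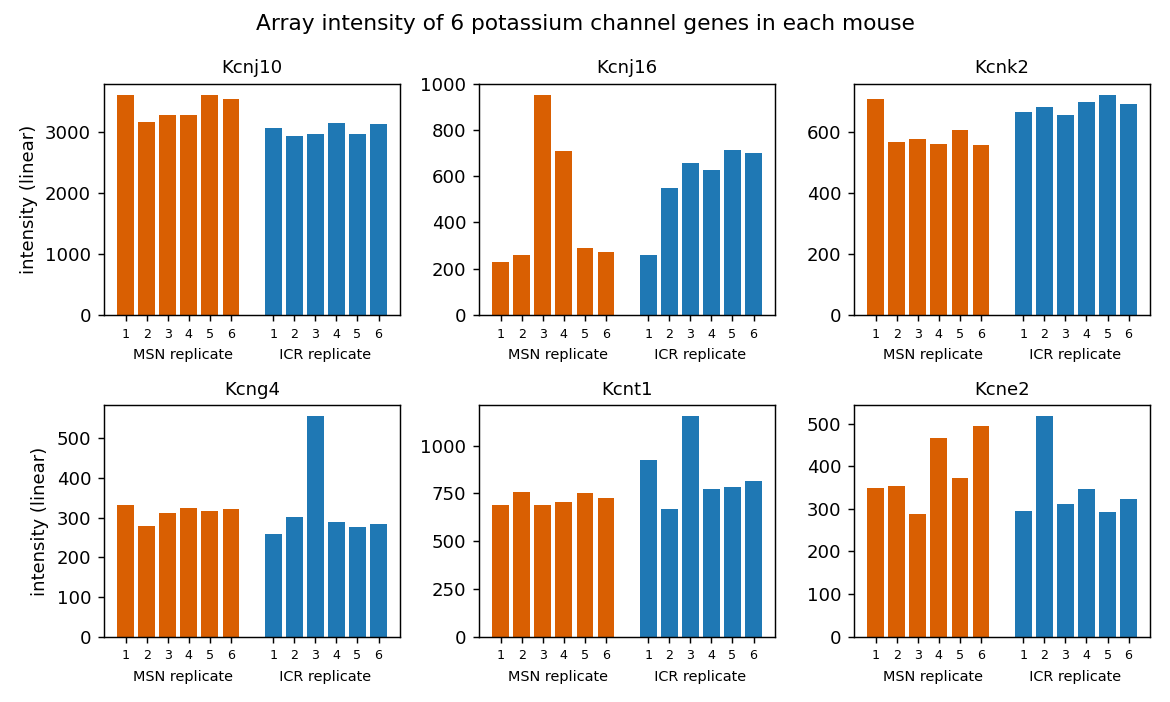
Array intensity on a linear scale (vertical axis) of 6 potassium channel genes in each mouse, with 1 bar per mouse, orange for MSN and blue for ICR. Kcnj10 is higher in every MSN mouse than in any ICR mouse, Kcnj16 falls into a low and a high level in both strains, and ICR replicate 3 has the highest bar for Kcng4 and Kcnt1.

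ICR replicate 3 had the highest value of the 12 mice in 14 of the 91 genes (15.4%), against 8.88% of all genes, and the lowest in 12 (13.2%), against 12.1%. MSN replicate 5 was also the highest in 14 genes (15.4%), against 8.94% of all genes. It was the lowest in 8 (8.79%), against 18.3%, the largest such share of all genes in any mouse. Kcnf1, a Kv gene, was 568 in MSN replicate 5 and 350 to 368 in the other MSN mice. Its log2 fold change was -0.22 with all mice (limma, adjusted P-value 0.42). Without MSN replicate 5 its adjusted P-value was 0.057, the smallest of the 91 genes there. ICR replicate 3 was the highest for Kcna1, Kcna2, Kcnab3, Kcnc1, Kcnd2, Kcng4, Kcnh5, Kcnip1, Kcnip4, Kcnj12, Kcnk3, Kcnk10, Kcnk12 and Kcnt1. Genes related to some of these had their lowest value in the same mouse, such as Kcnab2, at 4253, and Kcnc2, a fast-spiking channel like Kcnc1, at 1167. Of the 14 genes, 12 had a fold change below 0 with all mice and 8 without ICR replicate 3, and leaving out the highest ICR value raises the fold change by construction. The log2 fold change moved from -0.010 to 0.060 for Kcnh5, from 0.019 to 0.051 for Kcnip1 and from -0.059 to -0.003 for Kcnk12, a K2P gene. Where this mouse was the lowest, leaving it out lowers the fold change by construction. For Kcng3, a Kv gene, it moved from -0.15 to -0.24 (limma, adjusted P-value 0.075 without the mouse, the smallest of the 91 genes there). For Kcnn3, a calcium-activated channel gene, it moved from -0.081 to -0.15 (adjusted P-value 0.27). Kcng4 encodes a silent Kv subunit, and its intensity was 556 in ICR replicate 3 and 332 in the next mouse. Its log2 fold change was -0.010 with this mouse and 0.15 without it (limma, adjusted P-values 0.99 and 0.20). Kcng4 was singled out after its values were seen. The part of the high Pvalb of ICR replicate 3, or of its other marker differences, in these values was not tested.

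The spread between mice was compared because MSN mice are inbred and ICR mice outbred. The SD of the log2 values was larger in ICR mice in 56 of the 91 genes (61.5%), against 50.5% of all genes. The median SD was 0.093 in MSN and 0.11 in ICR mice. Without ICR replicate 3 the count was 45 (49.5%), against 45.6% of all genes. By channel type, the ICR SD was the larger in 22 of 35 Kv, 6 of 14 Kir, 10 of 14 K2P, 5 of 8 calcium- and sodium-activated and 13 of 17 accessory genes. After Kcnh4 the widest ratios were those of Kcng4 (4.77) and Kcnt1 (4.52), in both of which ICR replicate 3 had the highest value. At the other end, Kcne3, a subunit of epithelial channels, and Kcnk2 had an ICR SD of 0.37 and 0.38 times that in MSN mice.

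**Figure D4:**
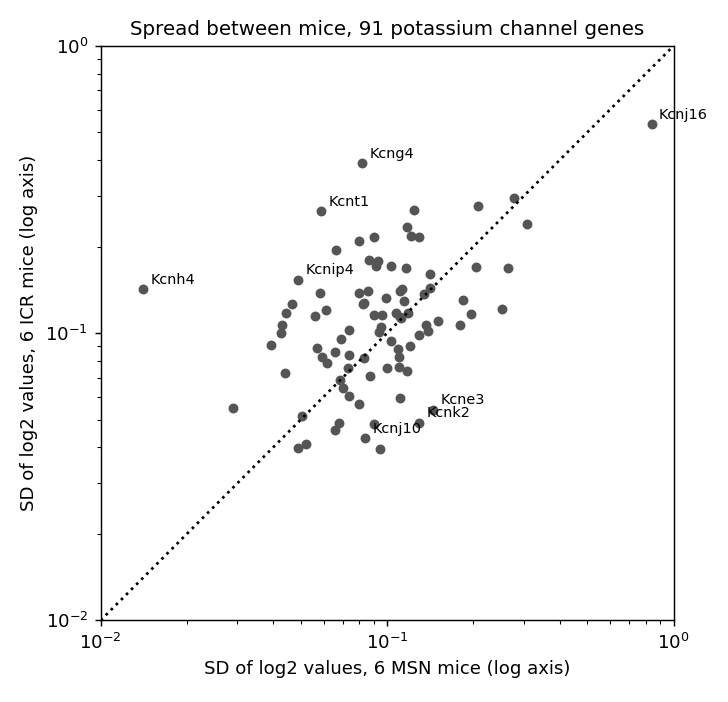
SD of log2(intensity + 16) among 6 MSN mice (horizontal) and among 6 ICR mice (vertical) for 91 potassium channel genes, both on log axes. Each point is 1 gene and the dotted line marks equal SDs; 56 points lie above it, and Kcnh4 lies farthest from it.

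Genes that act with potassium channels but carry other symbols were examined in the same fit, as a list of 40 scaffold proteins, subunits, regulators and related HCN channels. Of the 37 measured, none passed the adjusted threshold and 4 (10.8%) had an unadjusted limma P-value under 0.05, against 12.6% of all genes. Pex5l, the TRIP8b subunit that sorts HCN channels, was 1494 to 1649 in MSN and 1376 to 1496 in ICR mice, with a log2 fold change of 0.15 (adjusted P-value 0.066). Hcn2, one of the pacemaker channels it binds, was 1234 to 1438 in MSN and 1130 to 1294 in ICR mice, with a log2 fold change of 0.17 (adjusted P-value 0.099). Both pairs of ranges overlapped, that of Pex5l at a single mouse of each strain. Wnk1, a kinase that regulates ion transport, differed by 0.073 (adjusted P-value 0.35), and Akap5, an anchoring protein for the kinases that modulate M-channels, by -0.11 (adjusted P-value 0.33).

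Of 10 pairs of channel genes that neighbor each other on a chromosome, 2 had fold changes of the same sign. Kcnj9 and Kcnj10 on chromosome 1 differed by -0.11 and 0.17, and Kcnj16 and Kcnj2 on chromosome 11 by -0.51 and 0.042. Kcnip1 and Kcnmb1, also on chromosome 11, differed by 0.019 and -0.24. For Kcna2, Kcnh8 and Kcnma1 a further cluster was present on the array, and in each the fold change of both clusters had the same sign.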

How the data were processed

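Hippocampal RNA of 6 MSN and 6 ICR mice was measured on 12 arrays, 1 per mouse. Intensity values were computed by the authors in Affymetrix Power Tools 1.12.0, using PLIER after a background correction by GC bin, and were deposited on a linear scale. PLIER values were not rescaled here, and 16 was added before taking log2, which shrinks the fold changes of dim genes. limma 3.58.1 in R 4.3.3 (lmFit, eBayes) was fitted with strain as the only term, with Benjamini-Hochberg adjustment over the 23410 clusters, of 35556, that have a gene in the annotation of the platform. That annotation can be old; 21789 clusters had 1 gene, 1621 several and 12146 none. Unadjusted P-values are also from limma, and exact permutation tests are two-sided. The deposited values came without detection calls, so depth is limited by the number of arrays. The mice were separate animals, and no batch was given in the sources used here.

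Named were all genes with an unadjusted P-value under 0.05 or without overlap, the 2 smallest P-values and 2 highest means of each type, the extremes of the SD ratio, and a list of brain channels, of which 2 were not analysed here. Genes named outside this rule were chosen after their values were seen. The members and lists were chosen with earlier results of these data known. Alternatives were untransformed values, pseudocounts of 1 and 64, 2 scalings, trend and robust options, a filter on the mean, array weights, all clusters, the mean over clusters, the replicate block, and leaving out each array. The code was tested on simulated data.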

Additional observations from a re-analysis of the deposited data

Results flagged for a closer look

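In the 33 named genes and in Kcnj16 and Kcng4, 70 sets of 6 mice were examined for a value far from the others by Dixon's test at 95%, and 8 had one. Chance flags about 1 in 20 such sets, but Kcnj16 and Kcng4 were added after their values were seen and other genes were named for their spread, so the count of 8 is a description. In 5 of the 8 it was ICR replicate 3. Its intensity was 4544 for Kcnip4, where the next ICR mouse had 3652, and 4776 for Kcnd2, where the next had 4087. It was 1992 for Kcnk12, a K2P gene, where the next had 1605, and 1926 for Kcnc1, where the next had 1619. For Kcng4 it was 556, where the next had 302. Kcnk2 was 709 in MSN replicate 1, where the next MSN mouse had 605. Kcne2 was 517 in ICR replicate 2, where the next ICR mouse had 347. Kcnj16 was 260 in ICR replicate 1, where the next lowest ICR mouse had 547.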

How the results depend on the processing

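The 15 genes with an unadjusted P-value under 0.05 kept their direction in all 342 values from the alternatives, 4 of which passed the adjusted threshold. They were picked by P-value in these same arrays, so a kept direction is largely set by that choice. Of the 91 genes, 1 passed with trend and robust options (Kcnj10), among clusters above the median mean (Kcnj10; 56 genes tested) and with array weights (Kcnk2); leaving out single arrays gave 0 to 1, the 1 being Kcnk2 without MSN replicate 1. Unadjusted counts were 12 to 17 over 11 alternatives and 9 to 19 over left-out arrays. Of the partner genes 1 passed, against 0, with untransformed values, a pseudocount of 64, arrays scaled to the same median, trend and robust options, and clusters above the median mean. The median of all 91 was 0.0043 after quantile normalization and 0.013 with arrays scaled to the same median, which also moved the Kv median to 0.015 and brought those of K2P and of calcium- and sodium-activated genes to 0.00038 and -0.0034. Among clusters above the median mean, the K2P median was -0.12 and that of calcium- and sodium-activated genes -0.081; fewer genes were tested there. The causes of the other changes were not tested. Kcnma1 moved to -0.10 as the mean over its clusters.

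Same-numbered mice share only a number: their deviations correlated at -0.13 to 0.13, over 0.1 in 1 of 6 pairs. With the replicate number as a block, 0 of the 91 passed, 13 had an unadjusted P-value under 0.05 (11 of them among the 15), and 42 instead of 182 of all clusters passed. Signal over background was not in the values used here, so a limit for dim genes could not be given.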
